A study of Mus musculus with 4 samples.

Results

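The 9 genes described here are *Gpr3*, *Gpr12*, *Adcy3*, *Adcy9*, *Pde3a*, *Prkaca*, *Prkacb*, *Prkar1a* and *Prkar2a*, and were taken by name. They encode parts of the cyclic AMP (cAMP) and protein kinase A (PKA) machinery of prophase arrest and meiotic resumption in the mouse oocyte. All 9 were found among the 21957 genes of the deposited expression table. The question was how their mRNA levels differed between germinal vesicle (GV) oocytes, oocytes that had matured to metaphase II (MII), and oocytes cultured in the presence of tubastatin A (TubA), a compound made to inhibit the deacetylase HDAC6. All oocytes came from Hybrid B6D2F1 (C57BL/6 x DBA) females, 6 to 8 weeks old and primed with the gonadotropin PMSG, and their cumulus cells were removed with hyaluronidase. The GV library was made from oocytes at collection. The MII library came from oocytes kept for 12 h in M16 medium without TubA and picked for an extruded polar body, and its title calls them an embryo, while TubA-10 and TubA-20 came from oocytes kept for 12 h with 10 or 20 μM TubA, with no such selection stated. The study describes oocytes kept with the higher dose as arrested before metaphase of the second division, so meiotic stage and exposure cannot be told apart where they are set against MII. TubA was dissolved in DMSO, and whether the MII culture received DMSO is not stated. For the same TubA samples the treatment field of the labels gives 20 and 11 μM instead, and the doses in the titles are used here. By the study's methods each library was a pool of 100 oocytes, although its text also speaks of sequencing single oocytes, and there was 1 library per condition, so replicate error is unknown and no p-value is given.

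As background, the prophase arrest of a full-grown oocyte is kept by a high level of cAMP. The constitutively active receptors GPR3 and GPR12 signal through the stimulatory G protein to adenylyl cyclases, which make cAMP. Cyclic AMP releases the catalytic subunits of PKA from their regulatory subunits, and active PKA keeps the cyclin B kinase inactive through WEE2 and CDC25B. PDE3A breaks cAMP down, and meiosis resumes when its brake by cyclic GMP from the follicle cells is lifted. The full-grown oocyte is largely silent in transcription and works with stored mRNAs.

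Values are fragments per kilobase of transcript, scaled to the mapped fragments of the library (FPKM), so levels of different genes in a library can be compared. FPKM are shares of a library, so a change in the share of an mRNA and a change in total mRNA per oocyte cannot be told apart, and neither can mRNA amount and poly(A) tail length, since oligo(dT) beads were used. Differences are log2 ratios of FPKM + 1, which understate the change of low genes, and a gene was counted when it passed 2-fold. The 10898 genes with at least 1 FPKM in any of the 4 libraries served as background, and 8 of the 9 members were among them. *Adcy3* was not.

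The oocyte markers fixed as a list were present in all 4 libraries (10 of 10 genes, with summed levels from 15894 FPKM in GV to 21234 in TubA-20). They did not go one way, since in TubA-20 against GV 2 were more than 2-fold higher (*Gdf9* and *Oosp1*) and 4 lower (*Zp1*, *Zp2*, *Zp3* and *Figla*), and against MII 3 were lower. Of the 14 cumulus and granulosa markers 6 reached 1 FPKM in a library, and all 14 together summed to 19.5 FPKM (GV), 11.2 (TubA-10), 14.7 (MII) and 18.1 (TubA-20), of which *Cyp19a1* made up 6.14 to 10.3. *Foxl2* was listed at 0 in every library, and *Amh* in all but GV, while *Inha* was at 7.50 FPKM in GV and at 0.239 to 0.314 in the others. In TubA-20 against GV 6 of the 14 were higher and 7 lower, and past 2-fold *Inha* was lower while *Ptx3* (0 and 1.19 FPKM) and *Tnfaip6* (0 and 1.57) were higher. The 9 theca, stroma and blood markers summed to 1.81 to 2.49 FPKM, and the hemoglobin genes *Hbb-bs* and *Hba-a1* were listed at 0. Whether follicle cells contributed to a member's value was not tested. The depth was estimated from the smallest values, where a gene rests on single fragments. It came to 0.897 times that of GV for TubA-20, 1.62 times for MII and 1.70 times for TubA-10. These estimates are rough. Of the genes in a window around the most frequent ratio, not of all genes used, only 20.6% (MII) and 26.5% (TubA-10) lay at it, and 76.8% in TubA-20. The read totals in the paper differ from them, with more reads for TubA-20 than for GV and nearly equal totals for MII and TubA-10.

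The 3′ ends of the mRNAs are shown first, because the libraries were selected by poly(A) tail and because the cytoplasmic polyadenylation element (CPE) is the sequence through which tails are lengthened or shortened in maturing oocytes. In the last 150 bases of the annotated 3′ untranslated region of the principal transcript (GENCODE M21, GRCm38, sense strand only), a CPE written as TTTTAT or TTTTAAT was found once each in *Adcy3*, *Pde3a* and *Prkacb*, and not in the other 6 members. Of 9682 background genes with a region of that length, 26.2% held such an element and 82.8% a polyadenylation signal, written as AATAAA or ATTAAA. Such a signal was found in 7 of the 9 members, and neither in *Adcy9* nor in *Pde3a*. The runs below hold the element or, for *Prkar2a*, the signal alone, with CPE and signal in capitals.
Adcy3: gttgataaagaacaggactgTTTTATTAAA
Prkacb: TTTTAATtcatcaataaccgcaaaATTAAA
Pde3a: gacaTTTTAATccacaagtattaattttgc
Prkar2a: tagggcccggcttcactcttgactAATAAA
In *Adcy3* the CPE started 26 bases and the signal 22 bases before the annotated end, so the motifs overlap. In *Prkacb* they started 49 and 25 bases before it. The CPE of *Pde3a* lay 110 bases before the end of a region of 8555 bases, and it was not in the last 100 bases. A match is a description of letters and does not show that the element is used.

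Of the receptors, *Gpr3* was by far the more abundant. *Gpr3* (chromosome 4, 133209340 to 133212536, minus strand, principal transcript of 1 exon) was at 16.7 FPKM in GV, 28.6 in TubA-10, 22.8 in MII and 24.1 in TubA-20. *Cd164l2* overlaps it on the other strand, and the counting used strand. Other members also have a gene on the other strand, *Adcy3* (*Cenpo*), *Pde3a* (*Gm28523*), *Prkacb* (*Gm19104*) and *Prkar2a* (*Gm24259*). The level of *Gpr3* was lowest in GV and highest in TubA-10. It was the only member for which TubA-10 lay outside the range between GV and MII in the deposited values. TubA-10 exceeded GV by 0.74 on the log2 scale, TubA-20 by 0.50 and MII by 0.42, and 92.8% of the background genes had a smaller difference than *Gpr3* between TubA-10 and GV. MII and TubA-20 differed by 0.07, a value that turned negative under all 4 other scalings of the libraries (−0.078 to −0.0053).

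*Gpr12* (chromosome 5, 146582398 to 146585239, minus strand, 2 exons) encodes the closest relative of GPR3 among the members, with 58.2% identical residues over 323 aligned. Its mRNA was at 1.14 FPKM in GV, 1.04 in TubA-10, 0.926 in MII and 0.278 in TubA-20. The first 3 libraries were near 1 FPKM, and TubA-20 stood below all of them. The log2 difference of TubA-20 was −0.75 against GV, −0.59 against MII and −0.67 against TubA-10, and with a pseudocount of 0.01 it was −2.00, −1.70 and −1.87, past 2-fold in each. By a rough estimate from the worth of a single fragment, the TubA-20 value rests on about 5 fragments and those of GV, MII and TubA-10 on about 24, 32 and 41, so this difference is one between small counts. The small difference between TubA-10 and GV (−0.07) became 0.068 with libraries set to equal *Gapdh*. The receptor mRNAs shared no run of identical bases longer than 14, well under the read length of 100 bases.

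The 2 cyclases differed widely in level, with *Adcy9* 25.5 to 94.0 times above *Adcy3*. *Adcy9* (chromosome 16, 4287529 to 4420498, minus strand, 11 exons) was at 3.58 FPKM in GV, 4.56 in TubA-10, 7.49 in MII and 10.0 in TubA-20. TubA-10 was close to GV, and MII and TubA-20 were clearly higher. TubA-20 was more than 2-fold above GV (log2 difference 1.27), MII was 0.89 above it, and TubA-20 was 0.38 above MII and 0.99 above TubA-10. Between TubA-10 and MII the difference was −0.61, and only 1.55% of the background genes had a lower one. *Adcy3* (chromosome 12, 4133103 to 4213525, plus strand, 22 exons) stayed low at 0.141 FPKM in GV, 0.0972 in TubA-10, 0.0797 in MII and 0.186 in TubA-20. These values rest on about 6 to 8 fragments each, too few for a direction.

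The phosphodiesterase gene *Pde3a* (chromosome 6, 141249269 to 141507448, plus strand, 16 exons) was at 9.05 FPKM in GV, 14.2 in TubA-10, 18.8 in MII and 20.6 in TubA-20. The level in GV was the lowest, TubA-10 lay between GV and MII, and MII and TubA-20 were close together. TubA-20 exceeded GV by 1.11 on the log2 scale, MII by 0.98 and TubA-10 by 0.59. With the libraries set to a median change of 0 the TubA-20 value came to 0.89, short of 2-fold, while MII passed 2-fold with smaller pseudocounts, equal sums, equal upper quartiles or equal *Gapdh* (1.04 to 1.19). TubA-20 was 0.13 above MII, which turned to −0.0087 with equal FPKM sums and to −0.024 with equal *Gapdh*. *Pde3b*, the paralog of *Pde3a*, was at 6.31 FPKM in GV, 11.8 in TubA-10, 16.2 in MII and 17.01 in TubA-20, so the ratio of *Pde3a* to *Pde3b* stayed between 1.16 and 1.43.

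The PKA catalytic subunit genes were both higher in MII and TubA-20 than in GV. *Prkaca* (chromosome 8, 83972993 to 83996443, plus strand, 10 exons) was at 4.41 FPKM in GV, 5.24 in TubA-10, 7.68 in MII and 9.06 in TubA-20. *Prkacb* (chromosome 3, 146729574 to 146812990, minus strand, 10 exons) was at 1.97, 2.07, 3.29 and 2.995 FPKM in the same order. For both genes GV and TubA-10 were the lower pair and MII and TubA-20 the higher pair. TubA-20 was above GV by 0.90 for *Prkaca* and by 0.43 for *Prkacb*, MII was above GV by 0.68 and 0.53, and TubA-10 was 0.48 below MII for each of them. *Prkaca* passed 2-fold in TubA-20 against GV with pseudocounts of 0.1 and 0.01 (1.02 and 1.04). The difference of *Prkacb* between TubA-10 and GV, 0.05, turned to −0.060 with the median change set to 0. The encoded proteins were 91.5% identical over 351 residues, and the transcripts shared no run of identical bases longer than 34.

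Between the regulatory subunit genes, *Prkar2a*, which encodes the RIIα subunit bound by most anchoring proteins, differed more than *Prkar1a*, which encodes RIα. *Prkar2a* (chromosome 9, 108689314 to 108750436, plus strand, 11 exons) was at 12.1 FPKM in GV, 17.1 in TubA-10, 25.3 in MII and 34.6 in TubA-20. The values are spread widely with TubA-20 at the top. On the FPKM + 1 scale it passed 2-fold in MII against GV at 1.003, just above *Pde3a* and *Adcy9*, and without a pseudocount the 3 genes had like ratios of 2.09 (*Prkar2a*), 2.08 (*Pde3a*) and 2.09 (*Adcy9*). The value of *Prkar2a* came to 0.87 with the median change set to 0. In TubA-20 against GV its difference was 1.44, with 97.4% of the background genes below it. Against TubA-10 the TubA-20 level was higher by 0.98, and against MII by 0.44. *Prkar1a* (chromosome 11, 109649405 to 109669656, plus strand, 12 exons) was at 21.5 FPKM in GV, 26.8 in TubA-10, 27.2 in MII and 23.2 in TubA-20. The 4 values lay close together, and TubA-20 was 0.11 above GV and 0.22 below MII. With the median change set to 0 TubA-20 was 0.11 below GV instead (−0.11).

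**Figure D1:**
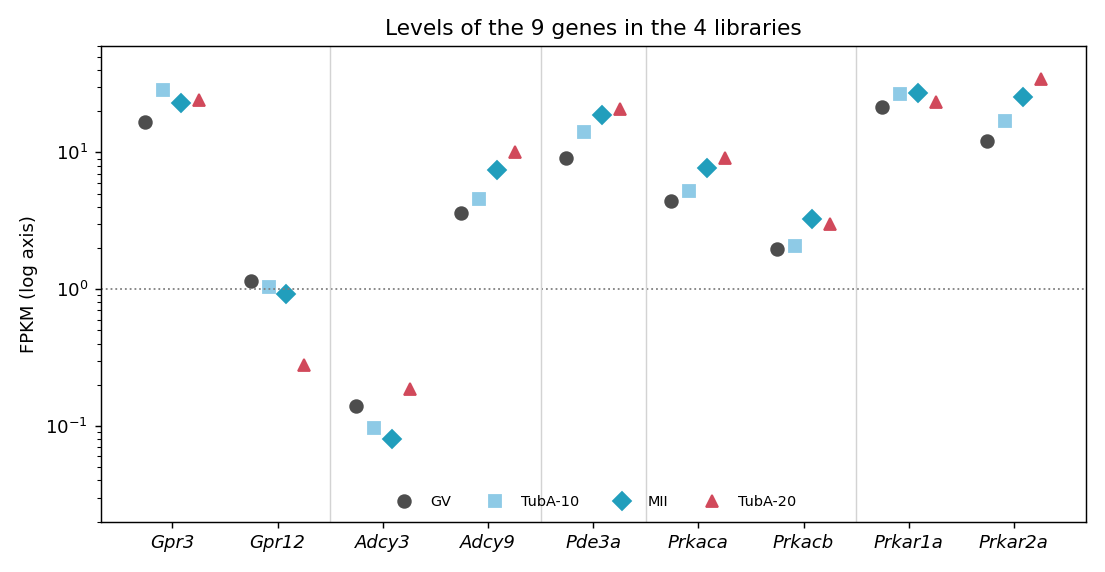
FPKM (log axis) of the 9 genes, with 1 point for each library and a dotted line at 1 FPKM. GV is the lowest point for 7 genes, *Gpr12* stands out by its low TubA-20 value of 0.278, and *Adcy3* reaches at most 0.186 FPKM.

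In the order of levels in GV, *Prkar1a* (21.5 FPKM) was followed by *Gpr3*, *Prkar2a*, *Pde3a*, *Prkaca*, *Adcy9*, *Prkacb*, *Gpr12* and *Adcy3*. In TubA-20 *Prkar2a* came first (34.6 FPKM), before *Gpr3* (24.1) and *Prkar1a* (23.2), which lay close together. Among the background genes of each library, *Prkar2a* moved from percentile 53.0 in GV to 60.7 in TubA-10, 69.2 in MII and 74.7 in TubA-20. Between GV and TubA-20 *Adcy9* moved from percentile 27.7 to 52.3 and *Gpr12* from 7.36 to 2.27. Such ranks do not depend on how the libraries are scaled.

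The members' counts are given here beside those of the background, with no test of the group. Counts and medians cover all 9 members, including *Adcy3*, which is not in the background. Its level was too low to pass 2-fold on the FPKM + 1 scale. In MII against GV, 1 of the 9 members was more than 2-fold higher and 0 lower, where 6.14% of the background genes were higher and 16.8% lower. The median log2 difference of the members was 0.53, beside 0.04 over the background, and 7 of the 9 were above GV, as were 51.5% of the background genes. In TubA-20 against GV, 3 members were more than 2-fold higher (*Adcy9*, *Pde3a* and *Prkar2a*) and 0 lower, where 15.3% of the background genes were higher and 23.6% lower, with medians of 0.50 and 0.07. In TubA-10 against GV no member passed 2-fold, where 1.5% were higher and 11.3% lower, and the medians were 0.28 and 0.08. These 3 comparisons share the GV library, so they are not independent of each other.

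Between the cultured libraries no member passed 2-fold on the FPKM + 1 scale, while with smaller pseudocounts *Gpr12* did so in TubA-20 against MII and TubA-10, *Adcy9* and *Prkar2a* in TubA-20 against TubA-10, and with 0.01 *Adcy3* in TubA-20 against MII. The background shares given next are for FPKM + 1 and were not recomputed with smaller pseudocounts. In TubA-10 against MII, where 1.04% of the background genes were higher and 0.257% lower, the median of the members was −0.39 beside 0.01, with 6 members lower. The lower members were *Adcy9*, *Prkar2a*, *Prkacb*, *Prkaca*, *Pde3a* and *Prkar1a*, the last by only 0.02, which turned to 0.016 with equal *Gapdh*. In TubA-20 against MII, where 0.661% were higher and 4.92% lower, the median was 0.13 beside −0.0013, with 6 members higher. That median turned to −0.0087 with equal FPKM sums and to −0.024 with equal *Gapdh*, so no direction can be given for the group. In TubA-20 against TubA-10, where 1.33% were higher and 11.1% lower, the median was 0.38 beside 0.01, and *Adcy9* and *Prkar2a* came nearest to 2-fold at 0.99 and 0.98.

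**Figure D2:**
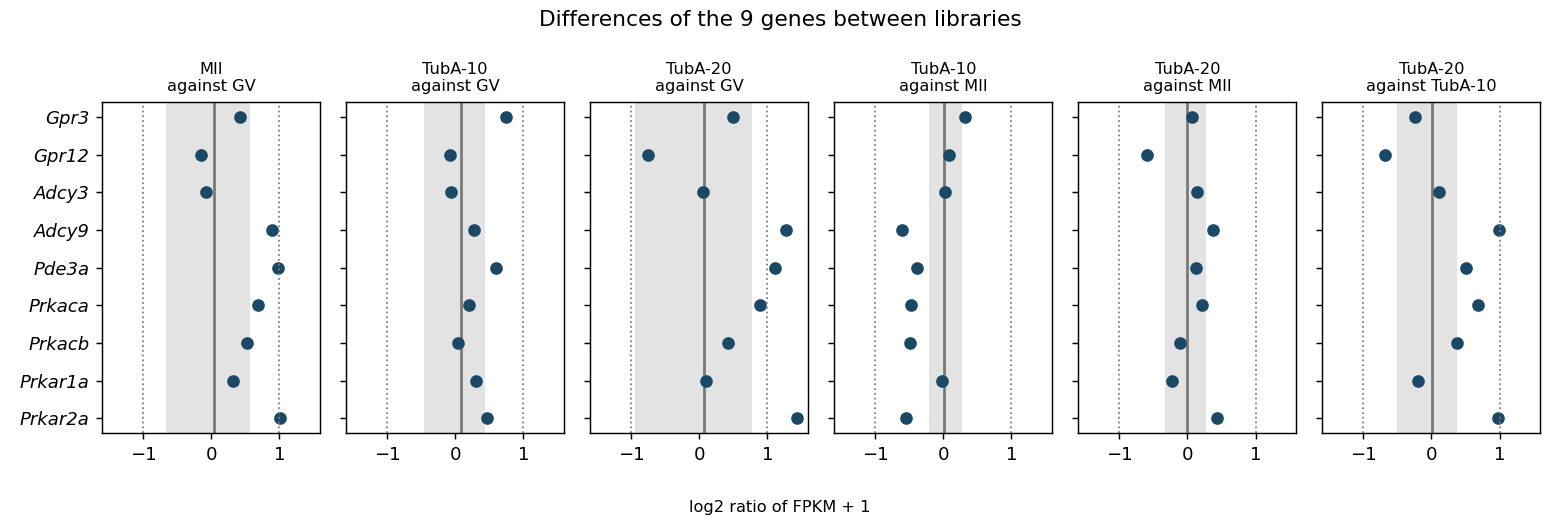
Log2 ratio of FPKM + 1 for each of the 9 genes in the 6 comparisons, with the median (grey line) and the middle 50% (grey band) of the 10898 background genes and dotted lines at 2-fold. In TubA-20 against GV *Prkar2a*, *Adcy9* and *Pde3a* lie past 2-fold, and in TubA-10 against MII 5 genes lie below the band.

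As for the order of the libraries, for 8 of the 9 members TubA-10 lay between GV and MII in the deposited values. It did so for 64.5% of the background genes. The 8 include *Adcy3*, which is not in the background and rests on too few fragments for a direction. They also include *Gpr12*, *Prkar1a* and *Prkacb*, for each of which another scaling of the libraries moved TubA-10 out of that range. For 6 members TubA-20 lay beyond MII as seen from GV, as for 69.3% of the background genes. The levels went up from GV through TubA-10 and MII to TubA-20 for *Adcy9*, *Pde3a*, *Prkaca* and *Prkar2a* (24.3% of the background genes did so), and down in the same order for *Gpr12* (22.6%). GV was the lowest library for 7 members, against 43.9% of the background.

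Ratios between members within a library do not depend on scaling. *Gpr3* exceeded *Gpr12* by 14.6 times in GV, 27.5 in TubA-10, 24.6 in MII and 86.5 in TubA-20, the last with few fragments of *Gpr12*. The ratio of *Prkar2a* to *Prkar1a* was 0.565 in GV, 0.639 in TubA-10, 0.932 in MII and 1.49 in TubA-20, so the more abundant of these regulatory mRNAs was *Prkar1a* in the first 3 libraries and *Prkar2a* in TubA-20. *Prkaca* exceeded *Prkacb* by 2.24 to 3.02 times. The summed regulatory over the summed catalytic level of the 4 PKA members moved much less, from 5.27 in GV to 6.01 in TubA-10, 4.79 in MII and 4.796 in TubA-20. *Pde3a* over *Adcy9* was 2.53 in GV, 3.10 in TubA-10, 2.51 in MII and 2.06 in TubA-20.

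**Figure D3:**
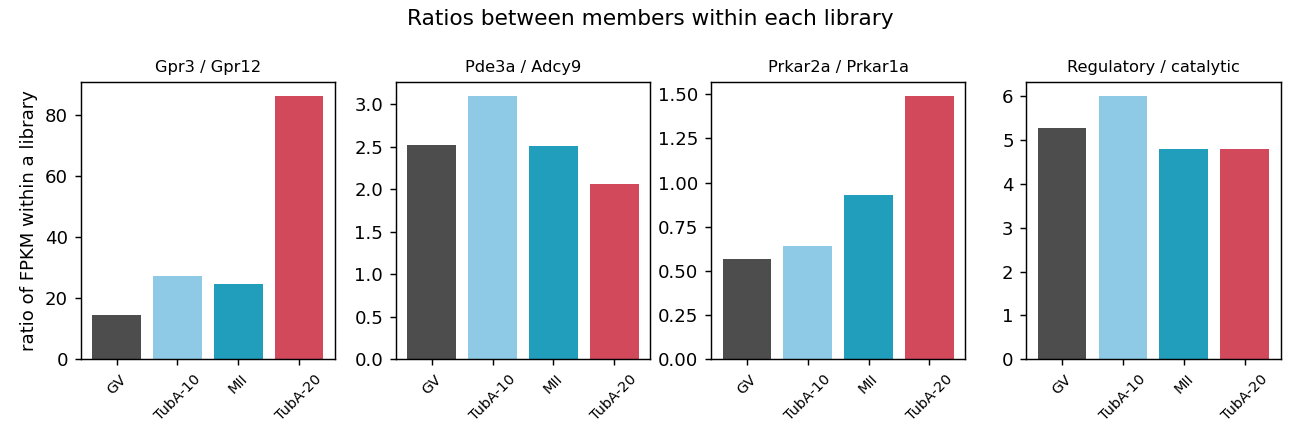
Ratios of FPKM within each library for 4 pairs or sums of members, with bars from 0 and 1 bar per library. The ratio of *Prkar2a* to *Prkar1a* passes 1 only in TubA-20 (1.49), while the regulatory to catalytic ratio stays between 4.79 and 6.01.

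The other genes of the pathway were taken as a list of 69, of which 45 reached 1 FPKM in a library and 5 were listed at 0 in all. Of the 45 genes, 5 (11.1%) were more than 2-fold higher and 4 (8.89%) lower in MII than in GV, beside 6.14% and 16.8% of the background genes. For TubA-10 against GV these counts were 1 (2.22%) and 4 (8.89%), beside 1.5% and 11.3%. For TubA-20 against GV they were 14 (31.1%) and 4 (8.89%), beside 15.3% and 23.6%. Against MII, 0 were higher and 3 (6.67%) lower in TubA-20, beside 0.661% and 4.92%, and none passed 2-fold in TubA-10. Over the 45 genes the median difference from GV was 0.29 (MII), 0.19 (TubA-10) and 0.35 (TubA-20), and that of TubA-20 from MII was 0.10.

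Of the 11 receptor and G protein genes, 8 reached 1 FPKM. Against GV, 1 of them passed 2-fold upwards in MII (6.14% of the background), 5 did so in TubA-20 (15.3%) and 0 in TubA-10 (1.5%), and none passed it downwards. *Gnas*, which encodes the stimulatory α subunit through which GPR3 acts, was at 189 FPKM in GV, 238 in TubA-10, 339 in MII and 334 in TubA-20. *Rgs2*, a regulator of G protein signalling, was at 312 FPKM in GV, 356 in TubA-10, 355 in MII and 650.0 in TubA-20, so TubA-20 stood well above the others. *Gpr6*, named after its values were seen and the remaining receptor of the GPR3 family, was listed at 0 in every library. Of the other cyclases, the highest were *Adcy5* at 2.32 to 2.97 FPKM and *Adcy2* at 0.623 to 1.42. *Adcy9* was thus the most abundant cyclase mRNA in each library. Of the 8 other cyclases 3 reached 1 FPKM, and the rest were too low to pass 2-fold on the FPKM + 1 scale. None of the 3 passed it, where 0.661% to 15.3% of the background genes were higher and 0.257% to 23.6% lower, depending on the comparison. Without a pseudocount *Adcy2* was 2.28 times higher in TubA-20 than in MII.

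Among the other 15 phosphodiesterases *Pde8a* was the highest, at 9.75 FPKM in GV, 15.8 in TubA-10, 20.0 in MII and 20.2 in TubA-20, near the level of *Pde3a* in each library. *Pde1b*, a calmodulin-dependent enzyme, was at 7.65, 6.27, 5.14 and 1.70 FPKM in that order, and lower in TubA-20 than in MII by 1.19 on the log2 scale (−1.19). Of the other PKA genes, *Prkar2b* was at 16.3 FPKM in GV, 21.4 in TubA-10, 23.8 in MII and 32.5 in TubA-20, the same order of libraries as *Prkar2a*. *Pkig*, a PKA inhibitor, was at 66.3, 66.4, 38.1 and 42.6 FPKM. Of the anchoring proteins, *Akap7* was at 117, 174, 195 and 301 FPKM, and *Akap1*, which places PKA at mitochondria, at 53.0, 64.2, 86.6 and 84.9.

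Of the 10 genes of cyclic GMP supply and gap junctions, 5 reached 1 FPKM. In MII against GV 3 of these were more than 2-fold lower (*Pde9a*, *Gja1* and *Gja4*) and 0 higher, beside 16.8% and 6.14% of the background, while in TubA-20 2 were lower and 1 higher, beside 23.6% and 15.3%. *Gja4*, the oocyte connexin 37 of gap junctions to cumulus cells, was at 536 FPKM in GV, 164 in TubA-10, 119.5 in MII and 86.0 in TubA-20, with MII at −2.16 and TubA-20 at −2.63 against GV on the log2 scale. *Prkg1*, a cyclic GMP dependent kinase, was at 9.62 to 15.7 FPKM. The follicle cell genes *Nppc* and *Npr2* stayed below 1 FPKM in each library. *Gja1*, the connexin of cumulus cells, which like *Nppc* and *Npr2* was chosen here after its values were seen, was at 2.29 FPKM in GV, 0.0822 in TubA-10, 0.438 in MII and 1.54 in TubA-20. In TubA-10 against MII, 0 of the 14 cumulus and granulosa markers were higher and 12 lower, where 51.3% of the background genes were higher. Only 6 of the 14 reached 1 FPKM in a library, so many of these signs rest on very small values. *Fshr* was at 0 FPKM in TubA-10 and 0.138 in MII, and *Inha* differed by −0.0051 on the log2 scale. The other comparisons were mixed, with 7 higher and 5 lower in TubA-20 against MII. The part of follicle cells in the values of *Gja1*, *Nppc* and *Npr2* was not tested.

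Downstream of PKA, *Wee2* was at 181 FPKM in GV, 205 in TubA-10, 217 in MII and 278 in TubA-20. *Cdc25b* was at 11.2 FPKM in GV, 14.5 in TubA-10, 17.7 in MII and 6.62 in TubA-20. These opposing regulators of the cyclin B kinase differed in opposite directions between TubA-20 and MII (0.36 and −1.30). In MII against GV both were higher (0.26 and 0.62). *Atf1*, a transcription factor phosphorylated by PKA, was at 24.96, 52.4, 73.5 and 71.3 FPKM in GV, TubA-10, MII and TubA-20. *Rapgef3*, which encodes EPAC1, a cAMP sensor other than PKA, was at 33.9 FPKM in GV, 14.3 in TubA-10, 8.94 in MII and 2.44 in TubA-20, with a log2 difference of −3.34 between TubA-20 and GV and −1.53 between TubA-20 and MII.

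**Figure D4:**
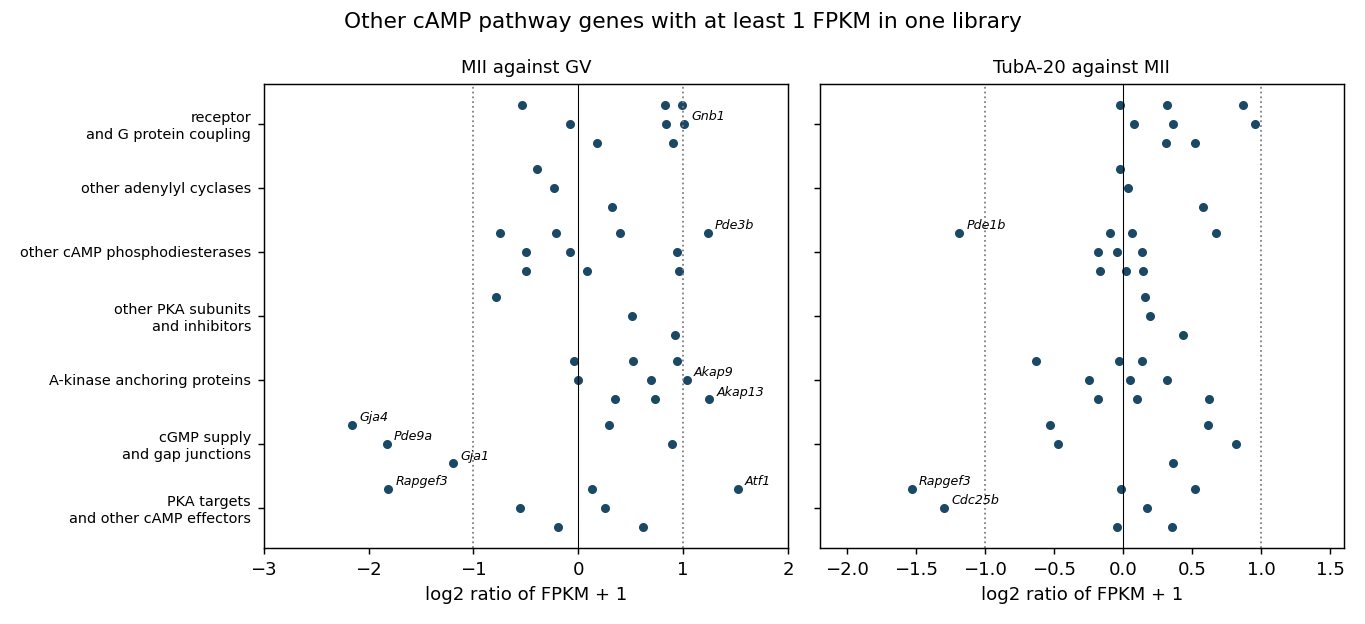
Log2 ratio of FPKM + 1 for the 45 other pathway genes with at least 1 FPKM in a library, 1 point per gene by role, for MII against GV (left) and TubA-20 against MII (right). Genes past 2-fold (dotted lines) are named, and on the right these are *Pde1b*, *Rapgef3* and *Cdc25b*, all lower in TubA-20.

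For members above 1 FPKM, the nearest genes by the shape of the profile over the 4 libraries were searched among 7897 genes with at least 5 FPKM in a library. The measure was the Euclidean distance of centred log2 values of FPKM + 1, which flattens the profile of low genes. *Pde3a* was nearest to *Golph3l* (0.03) and *Sipa1l1* (0.03), *Gpr3* to *Mab21l2* (0.02) and *Brk1* (0.04), *Prkar2a* to *Rcor1* (0.03) and *Brd2* (0.04), and *Adcy9* to *Grn* (0.04) and *Pafah1b1* (0.05). *Prkaca* was nearest to *Naf1* (0.04) and *Cdyl* (0.05), *Gpr12* to *Dnttip1* and *Hs3st5* (0.07 each), and *Prkar1a* to ENSMUSG00000092486 and *Scp2* (0.05 each). Such profiles are common over 4 libraries. Within a distance of 0.2 there were 579 genes for *Pde3a*, 150 for *Prkar2a*, 110 for *Adcy9* and 66 for *Gpr12*.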

How the data were processed

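The authors deposited 1 table of FPKM for 4 libraries, made with cufflinks and the option for strand-specific libraries on mm10. The submitters' processing notes name STAR 2.5.0, Cufflinks and Cuffdiff 2.2.1. Columns were matched to conditions by the sample labels. Of 21959 entries, 165 had no symbol and kept their identifier, and entries with a common symbol were summed, which touched none of the 9 members. Differences are log2 ratios of FPKM + 1, with no test because there was 1 library per condition. The members and gene lists were chosen with earlier results of these data known. Named genes are the members, the 2 highest pathway genes of each role, those past 2-fold between TubA-20 and MII, and the nearest profiles. A few others of the list are given as context. The nearest profiles of *Prkacb* are not reported here. Pseudocounts, filters and 4 scalings were tried. RNA extraction is given as TRIzol in the labels and as PicoPure in the methods of the study. Scripts were tested on simulated data. Fragment numbers are estimates from the most frequent product of FPKM and transcript length below 0.15 FPKM, a step added after seeing the data. Loci and 3′ ends are from GENCODE M21 (GRCm38), alignments from biopython 1.88, run in Python 3.11.15 with pandas 2.3.3.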

Additional observations from a re-analysis of the deposited data

How the results depend on the processing

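Of 414 recomputed differences of single members, 380 kept their sign and their side of 2-fold, 22 newly passed 2-fold, 2 no longer did, and 10 changed sign. The 380 include all values under the filter at 5 FPKM, which could not change the difference of a single member. They also include those from taking the highest entry of a common symbol instead of the sum, which could not change a member either. Setting the median change to 0 shifts MII, TubA-10 and TubA-20 by −0.14, −0.16 and −0.23 log2 against GV, and equal *Gapdh* by 0.23, 0.27 and 0.07. With pseudocounts of 0.1 and 0.01, 3 members instead of 1 were more than 2-fold higher in MII than in GV, and 1 instead of 0 lower in TubA-20 than in GV, MII or TubA-10 (*Gpr12*). With either, 2 instead of 0 were higher in TubA-20 than in TubA-10, and with 0.01 also 1 instead of 0 higher in TubA-20 than in MII (*Adcy3*). The MII count against GV was 0 with the median change set to 0, 3 with equal FPKM sums, 2 with equal upper quartiles and 3 with equal *Gapdh*. The share of background genes past 2-fold was not recomputed under the other pseudocounts and scalings. These counts therefore have no share beside them and show nothing particular to the members. Keeping the 6 members with at least 5 FPKM raised the median of TubA-20 against GV from 0.50 to 1.001. Of these, *Adcy9* and *Prkaca* were below 5 FPKM in GV (3.58 and 4.41) and were kept only through libraries where they were higher. The filter itself thus raises this median, and no background median was computed under it. The median of TubA-20 against MII turned to −0.0087 with equal sums and −0.024 with equal *Gapdh*, as did that of *Pde3a*. *Gpr3* in the same comparison turned to −0.0053 (median), −0.063 (sums), −0.041 (upper quartiles) and −0.078 (*Gapdh*). With the median change set to 0, *Prkacb* in TubA-10 and *Prkar1a* in TubA-20 were at −0.060 and −0.11 against GV, and with equal *Gapdh* *Gpr12* in TubA-10 was at 0.068 against GV and *Prkar1a* in TubA-10 at 0.016 against MII. With no filter the background shares were lower, since all 21957 genes were then counted. Leaving out a replicate was not possible with 1 library per condition. Depth limits *Gpr12* and *Adcy3* most.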
